A study of Mus musculus with 6 samples.

Results

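In all, 10 genes of the immunoproteasome and of peptide loading onto major histocompatibility complex (MHC) class I were examined in mouse small intestinal epithelium. They were Psmb8, Psmb9, Psmb10, Psme1, Psme2, Tap1, Tap2, Tapbp, B2m and Nlrc5, and every probe set that the platform annotation gives to a single gene was taken for them. This rule found 15 probe sets for 9 of the 10 genes, out of 34945 probe sets for 18193 genes on the array. The probe set of Psme2 is also assigned to Psme2b, so Psme2 was not analysed here. Of the 9 genes, 8 entered the test; Nlrc5 stayed below the brightness needed, with at least 3 of 6 arrays at an intensity of 16 or more. The main probe sets of those 8 genes were above 16 on all 6 arrays, so none of these passed through the brighter group alone.

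The cells, freed from the gut wall with EDTA, came from C57BL/6 mice at 2 weeks of age, with 1 Affymetrix expression array a sample. In 3 samples, termed N-cadherin replacement, the genotype was Ecadflox/Ncad;Vil-Cre: N-cadherin stood in for E-cadherin once Cre, driven by the villin promoter of gut epithelium, had removed the floxed E-cadherin allele. Cells of the detached fraction that lack villin activity, such as lymphocytes, are not targets of this Cre. The 3 control samples were littermates with E-cadherin; their alleles are given only as control, so which of the floxed, N-cadherin or Cre alleles they carried is unknown here. The epithelial markers Vil1 and Epcam were bright on every array (2768 to 3258 and 3206 to 4046 intensity units). The values are linear probe set intensities, scaled by the authors to a trimmed mean of 100 an array. Control 2 and control 3 differed over 5109 bright probe sets by an SD of only 0.115 (log2), against 0.347 to 0.564 for other pairs within a group and 0.0812 to 0.134 for hybridization controls over the array pairs; for control 2 and 3 themselves the hybridization controls gave 0.0824, below the 0.115, and other array pairs gave up to 0.134, so the 2 arrays entered as 1 replicate, the mean of their log2 values. The comparison therefore had n = 2 control and n = 3 replacement replicates. Nothing says that samples came from separate animals, so each p-value reflects only how these samples vary, which may be technical. Sex-linked transcripts marked control 1, replacement 2 and replacement 3 as female and the others as male. Control 1 also stood apart in stromal and endothelial markers, with a summed intensity over 11 genes of 1569, where the other 5 arrays had 355 to 643. Cdh1, the E-cadherin gene, was 2.09-fold lower in the replacement samples (log2 difference -1.06, SE 0.240, limma adjusted p = 0.0250). This call was lost in 8 of 20 alternative settings, left-out arrays among them, with differences from -1.205 to -0.924. The probe sets of Cdh2, the N-cadherin gene, reached at most 13.5 on any array.

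The proteasome cuts proteins into peptides. Under interferon signals the catalytic subunits Psmb8, Psmb9 and Psmb10 take the places of Psmb5, Psmb6 and Psmb7 in newly built core particles, giving the immunoproteasome, which favours peptides that fit MHC class I. Psme1 and Psme2 form the PA28 activator, a ring that docks onto the core. Tap1 and Tap2 pump peptides into the endoplasmic reticulum, Tapbp (tapasin) holds empty class I molecules beside the pump, B2m is the light chain of class I molecules, and Nlrc5 is the transactivator of class I genes. In gut epithelium this machinery shows peptides of the enterocyte to intraepithelial T cells.

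On chromosome 17 of GRCm38.p6, Psmb9, Tap1, Psmb8 and Tap2 follow each other with no other protein-coding gene between them, flanked by the class II genes H2-DMb1 and H2-Ob; Tapbp lies on the same chromosome. The promoters of the 2 genes that passed the test, Psmb8 and Psmb9, are shown because this block holds them, and that of B2m for comparison, as a tested member whose window holds matches to 2 interferon or NF-kappa B motifs. The windows run from 250 bases before to 50 bases after the start of the gene and were taken from RefSeq, 5′ to 3′ on the strand of the gene. RefSeq windows were found for 8 of the 10 genes. Capitals mark a match, on either strand, to the gamma-activated site TTCNNNGAA, the interferon response element (GAAA, any 2 bases, GAAA), the kappa B site (GGG, any 2 bases, TTTCC) or the GC box GGGCGG.
Psmb8, chr17:34197945-34198244, plus strand: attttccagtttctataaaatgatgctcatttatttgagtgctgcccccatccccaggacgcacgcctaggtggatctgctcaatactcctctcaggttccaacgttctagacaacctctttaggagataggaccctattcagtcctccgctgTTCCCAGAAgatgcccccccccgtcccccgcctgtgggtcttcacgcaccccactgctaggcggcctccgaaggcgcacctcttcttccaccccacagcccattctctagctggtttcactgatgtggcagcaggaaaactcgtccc
Psmb9, chr17:34187281-34187580, minus strand: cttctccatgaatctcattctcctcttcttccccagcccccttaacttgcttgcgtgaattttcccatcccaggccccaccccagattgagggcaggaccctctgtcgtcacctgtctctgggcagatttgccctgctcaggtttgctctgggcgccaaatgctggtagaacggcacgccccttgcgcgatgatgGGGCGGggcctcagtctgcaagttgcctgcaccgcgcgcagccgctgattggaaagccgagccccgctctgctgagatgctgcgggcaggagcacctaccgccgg
B2m, chr2:122147437-122147736, plus strand: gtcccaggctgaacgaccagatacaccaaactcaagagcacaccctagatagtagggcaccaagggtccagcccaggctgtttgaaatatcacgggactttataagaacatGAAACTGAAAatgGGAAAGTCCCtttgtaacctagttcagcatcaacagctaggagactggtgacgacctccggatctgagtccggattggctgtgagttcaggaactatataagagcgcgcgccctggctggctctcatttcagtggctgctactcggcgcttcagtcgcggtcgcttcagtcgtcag
Psmb8 has a gamma-activated site that begins 97 bases before its start, and 8.3% of 32851 mouse promoter windows of this length hold such letters. The Psmb9 window has a GC box 55 bases before the start, as 35.7% of windows do, and 275 of its 300 bases also lie in the Tap1 window, which reads the other way from the same stretch. B2m has an interferon response element 139 bases and a kappa B site 126 bases before its start; these occur in 3.44% and 1.63% of windows. No 2 of the printed matches overlap. A match describes letters and not a bound site.

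The immunoproteasome catalytic subunits differed in their calls, and their differences were not tested against each other. Psmb8 and Psmb9 fell in the replacement samples, 3.13-fold and 2.57-fold, while Psmb10 did not pass the test. Psmb8, the immunoproteasome subunit with chymotrypsin-like activity, had intensities of 573, 448 and 461 in control 1, 2 and 3 and of 291, 121 and 123 in replacement 1, 2 and 3. Every replacement array lay below every control array, and replacement 1 lay closest to them. The log2 difference was -1.65 (SE 0.382, n = 2 and 3, 95% interval -2.50 to -0.79, limma adjusted p = 0.0279). Psmb9, the caspase-like position's replacement, read 370, 389 and 373 in the controls and 222, 113 and 125 in the replacement arrays. These groups did not overlap either, and replacement 1 was again the highest of its group. Its log2 difference was -1.36 (SE 0.313, n = 2 and 3, 95% interval -2.06 to -0.66, limma adjusted p = 0.0271). Psmb10, which takes the trypsin-like position, had 761, 749 and 759 in the controls and 917, 601 and 567 in the replacement arrays. Replacement 1 was above all controls and the other 2 below them, so the groups overlapped; the log2 difference was -0.16 (SE 0.272, 95% interval -0.77 to 0.45, adjusted p = 0.783). Psmb10 lies on chromosome 8, as does Cdh1, with 15 protein-coding genes between them.

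A further Psmb8 probe set, whose name ends in _x_at and which may cross-hybridize, read 42.8, 32.4 and 22.7 in the controls and 17.4 in replacement 1, and was under 16 in replacement 2 and 3. It went the same way as the brighter Psmb8 probe set, with non-overlapping groups. However, it passed the filter only through the control arrays, so its direction gives no separate support. The calls of Psmb8 and Psmb9 rested on few replicates. They were lost when 1 control replicate was left, whose spread is then assumed to be that of the replacement arrays, with differences close to those above: without control 1 (log2 differences -1.48 and -1.38, adjusted p = 0.349 and 0.281) and without control 2 and 3 together (-1.81 and -1.34, adjusted p = 0.274 and 0.283). They were also lost without replacement 2 (-1.43 and -1.17, adjusted p = 0.105 and 0.0988) and when replacement 3 was dropped (-1.44 and -1.25, adjusted p = 0.140 and 0.131). Without replacement 1 they were -2.06 and -1.66 (adjusted p = 0.00370 and 0.00603). Over 20 alternatives the adjusted p ran from 0.00366 to 0.349 for Psmb8 and from 0.00603 to 0.283 for Psmb9, and every difference was below 0.

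**Figure D1:**
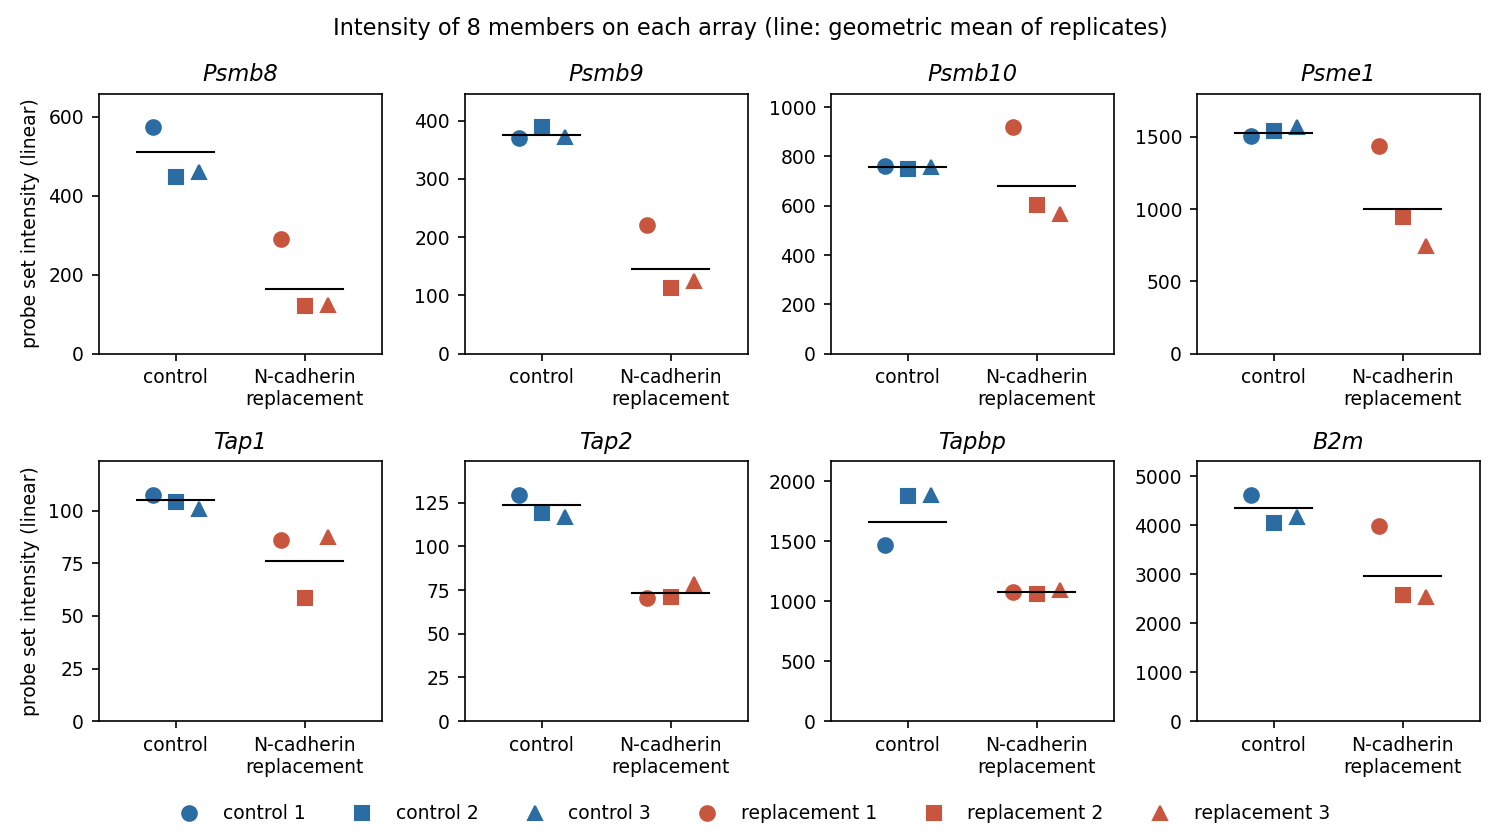
Linear probe set intensity of the 8 tested genes on each of the 6 arrays, control in blue and N-cadherin replacement in red, with marker shapes for replicate 1, 2 and 3 and a line at the geometric mean of the replicates (control 2 and 3 averaged first). Psmb8 and Psmb9 sit lowest in replacement 2 and 3, at 113 to 125, with replacement 1 at 291 and 222; the Psmb10 points of the groups overlap.

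In the PA28 activator and the light chain, too, replacement 1 lay nearest the controls. Psme1, the alpha subunit of PA28, read 1503, 1542 and 1565 in the controls and 1440, 945 and 742 in the replacement arrays. Replacement 1 was just below the controls and the other 2 well below. The log2 difference was -0.61 (SE 0.300, 95% interval -1.28 to 0.07) and did not pass (adjusted p = 0.253). B2m read 4616, 4042 and 4166 in the controls and 3984, 2572 and 2526 in the replacement arrays. Here too replacement 1 was next to the control range, and the difference of -0.56 (SE 0.273, 95% interval -1.17 to 0.06) did not pass (adjusted p = 0.249). The B2m probe sets differed: the second one had 3402, 3289 and 3643 in the controls against 3646, 2499 and 2923, with overlapping groups and a difference of -0.20 (SE 0.253, adjusted p = 0.739 in a fit over 26630 probe sets).

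Among the loading genes, the main probe sets of Tap2 and Tapbp had differences that were even across the replacement arrays, and Tap1 did not. Tap2, a chain of the peptide pump, read 129, 119 and 117 in the controls and 70.6, 71.2 and 78.3 in the replacement arrays. Its groups were well apart and its replacement arrays close together, with a log2 difference of -0.75 (SE 0.226, 95% interval -1.26 to -0.25), 1.69-fold lower, just outside the threshold (adjusted p = 0.0708). Tap1, the other chain, read 108, 104 and 101 in the controls and 86.0, 58.3 and 87.3 in the replacement arrays. In Tap1 replacement 2 was the lowest and the difference was -0.47 (SE 0.262, 95% interval -1.05 to 0.12, adjusted p = 0.315). The 3 other Tap1 probe sets stayed under 16 on all arrays, with 10.5 as the highest value. Tapbp read 1467, 1871 and 1884 in the controls and 1076, 1061 and 1091 in the replacement arrays, which differed little among themselves. Its difference was -0.63 (SE 0.234, 95% interval -1.15 to -0.10, adjusted p = 0.135). The second Tapbp probe set did not share this: it read 360, 266 and 309 against 250, 313 and 370, with a difference of -0.07 (SE 0.268, adjusted p = 0.930 in the fit over probe sets).

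Nlrc5 was dim. It read 15.5, 12.2 and 11.1 in the controls and 15.2, 12.8 and 19.3 in the replacement arrays, so replacement 3 alone reached 16 and no fold is given.

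Among the 8 tested genes 2 were called lower and none higher, where 4.66% of 12994 genes were lower and 4.46% higher (9.12% in either direction). At an unadjusted limma p under 0.05 there were 4 lower (Psmb8, Psmb9, Tap2, Tapbp) and 0 higher, where 12.9% of all genes were lower and 11.4% higher. All 8 differences were below 0, with a median of -0.62 against -0.02 over all genes, and 52.0% of all genes were below 0. In 7 of the 8, Psmb10 being the exception, all replacement arrays lay under all control arrays, as was so for 18.9% of genes. These genes share their arrays and many of their known regulators, so they are not independent. They were also chosen with earlier results of these data known, so the counts describe them and give no separate support. In the fit over all 26630 probe sets, 0 of the 11 member probe sets tested passed (limma, adjusted p = 0.0784 and 0.0720 for the main probe sets of Psmb8 and Psmb9), where 1.83% of probe sets were called lower; at an unadjusted p under 0.05, 5 were lower and 0 higher, against 9.34% and 10.2% of all probe sets. All 11 had differences below 0. Among the 11, and among the 5, is the _x_at probe set of Psmb8. It was under 16 in replacement 2 and 3 and passed the filter only through the control arrays, so a lower value was favoured in advance.

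Replacement 1 was the highest replacement array in 5 of the 8 genes (Psmb8, Psmb9, Psmb10, Psme1 and B2m), against 36.1% of all genes. The same held for 10 of 11 other core subunits, 9 of 11 class I heavy chains, 7 of 7 class II genes and 8 of 11 enterocyte markers, so it was not particular to the members. It was also the male one, so the distances were set beside controls of the same sex, with no test since each sex holds 1 control replicate. Among females Psmb8 was 4.69-fold and Psmb9 3.12-fold lower, and among males 1.56-fold and 1.72-fold. Tap2 was alike in females and males (log2 differences -0.79 and -0.74), B2m was not (-0.86 and -0.04), nor was Psme1 (-0.84 and -0.11), and Tapbp was lower by more in males (-0.45 and -0.80). With sex as a covariate the differences of Psmb8 and Psmb9 were -1.55 (adjusted p = 0.0155) and -1.27 (adjusted p = 0.0150). The part of sex in the spread among the replacement arrays was not tested and cannot be told apart from that of replacement 1 itself.

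**Figure D2:**
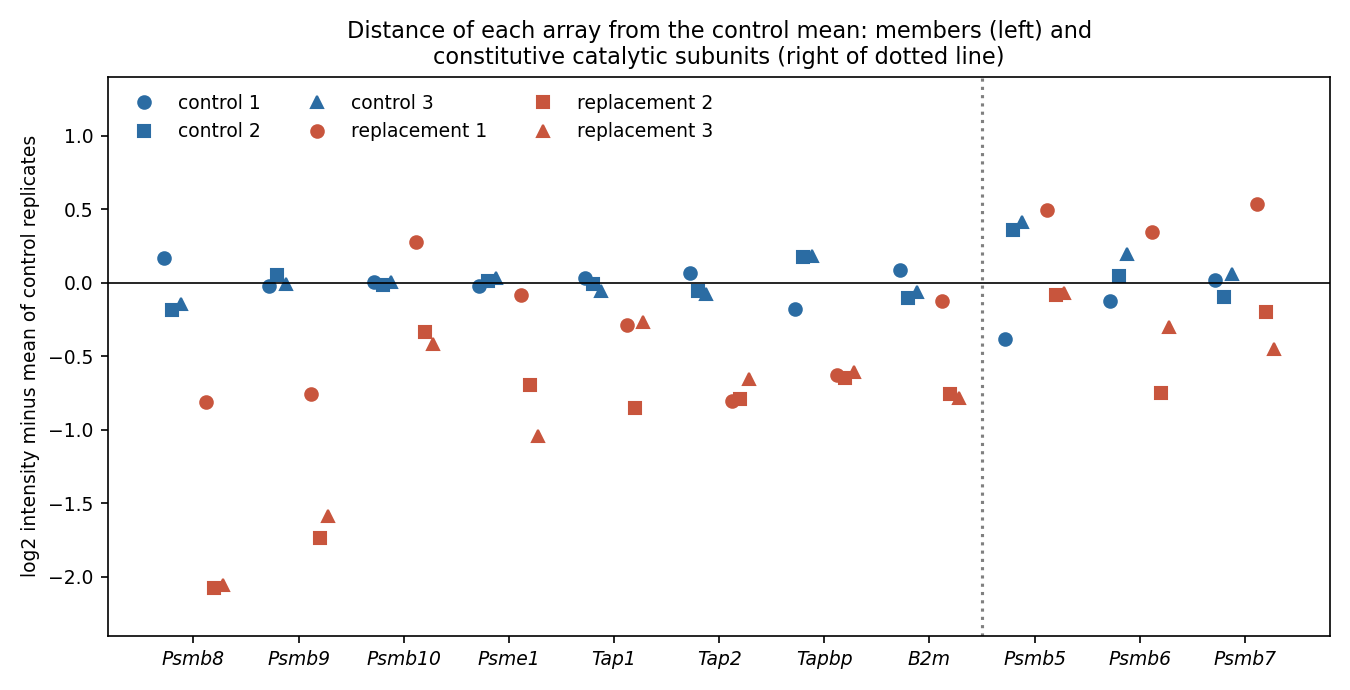
Log2 intensity of each array minus the mean of the control replicates, for the 8 tested genes and, right of the dotted line, the constitutive subunits Psmb5, Psmb6 and Psmb7; blue is control, red is replacement, and shapes are replicates. Psmb8 reaches -2.07 and -2.05 in replacement 2 and 3 and -0.81 in replacement 1, Tap2 and Tapbp show close replacement arrays, and the constitutive subunits scatter on both sides of 0.

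None of the constitutive catalytic subunits was called by limma in either direction, also at an unadjusted p under 0.05. Psmb5, whose place Psmb8 takes, read 521, 872 and 905 in the controls and 959, 641 and 647 in the replacement arrays, a difference of 0.11 (SE 0.307, adjusted p = 0.869). Psmb6, the counterpart of Psmb9, had -0.24 (SE 0.324, adjusted p = 0.716) and Psmb7, the counterpart of Psmb10, -0.03 (SE 0.309, adjusted p = 0.961). All 3 had replacement 1 as the highest array of the replacement group. Within each array, Psmb8 relative to Psmb5 was lower in all replacement arrays than in all control arrays, with a log2 change of -1.76 (3.38-fold lower), and so was Psmb9 relative to Psmb6, with -1.12 (2.18-fold lower). Relative to Psmb7, Psmb10 had a change of -0.12 and its groups overlapped. The 2-sided exact permutation test gave p = 0.2 for each of the first 2 ratios and p = 0.6 for the last (0.3, 0.3 and 0.6 adjusted over the 3 ratios). As run, 0.2 is the smallest p this test can give with 2 against 3 replicates. It could not reach 0.05 for any ratio, so nothing is concluded from it. Against the control mean, Psmb9 relative to Psmb6 stood at -1.10, -0.99 and -1.28 in replacement 1, 2 and 3, with replacement 1 between the others, and Psmb8 relative to Psmb5 at -1.31, -1.99 and -1.98, with replacement 1 again the highest. The Psmb8 ratio also varied among the controls (0.55, -0.55 and -0.56), where Psmb5 was lowest in control 1.

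Of the 11 other core subunits 0 were called by limma in either direction, also at an unadjusted p under 0.05; their differences ran from -0.30 (Psma2) to 0.19 (Psma1), with a median of -0.09. In the 19S cap, which unfolds ubiquitylated proteins, 1 of 21 genes was called higher and 0 lower, where 4.46% and 4.66% of all genes were. At an unadjusted limma p under 0.05, 2 were higher and 0 lower, where 11.4% of all genes were higher. The median was 0.28, and 19 of the 21 differences were above 0. The gene called was Psmd7, at 177, 136 and 161 in the controls and 309, 430 and 317 in the replacement arrays (log2 difference 1.10, SE 0.254, adjusted p = 0.0270). This call was lost without control 1 (1.23, adjusted p = 0.182), without control 2 and 3 together (0.97, adjusted p = 0.245), and when replacement 2 (0.95, adjusted p = 0.0954) or replacement 3 (1.17, adjusted p = 0.0882) was dropped; over 20 alternatives the adjusted p ran from 0.00599 to 0.245. Of 7 other activators and assembly factors 0 passed, also at an unadjusted p under 0.05. Among them were the activator Psme4 (0.52, adjusted p = 0.218) and Pomp, which assembles the core (-0.51, adjusted p = 0.346). The assembly factor Psmg4 had the largest difference (-1.25, SE 0.626, limma adjusted p = 0.258). It read 108, 118 and 115 in the controls and 104, 15.0 and 62.7 in the replacement arrays. Of the 7 differences 5 were above 0.

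Of 11 tested class I heavy chains, the partners of B2m, 1 was called lower and 0 higher, where 4.66% and 4.46% of all genes were. At an unadjusted limma p under 0.05, 4 were lower and 1 higher, where 12.9% and 11.4% of all genes were. Of their differences 9 were below 0, with a median of -0.20. The classical chains H2-K1 (3063 and 2931 as group means, difference -0.06) and H2-D1 (2954 and 2809, difference -0.07) had groups that overlapped. H2-Q2 read 2098, 1728 and 1658 in the controls and 1447, 1151 and 989 in the replacement arrays, apart but not past the threshold (-0.67, SE 0.258, adjusted p = 0.142). These 3 were chosen after their values were seen, and the H2-K1 and H2-D1 probe sets may cross-hybridize among the closely related chains. The main probe set of H2-T3 has a name that ends in _x_at and may also cross-hybridize among these chains. It fell from 381, 273 and 271 to 146, 143 and 104 (log2 difference -1.32, SE 0.270, adjusted p = 0.0168). H2-T3 encodes the thymus leukaemia antigen of gut epithelium, a ligand of CD8 alpha on intraepithelial T cells. Its call was lost without control 1 (-1.07, adjusted p = 0.229), without control 2 and 3 together (-1.56, adjusted p = 0.153), and when replacement 2 (-1.39, adjusted p = 0.0502) or replacement 3 (-1.16, adjusted p = 0.0855) was dropped, with adjusted p from 0.00571 to 0.229 over 20 alternatives. The second H2-T3 probe set read 368 in control 1 and 12.9 to 55.9 on the other 5 arrays, with overlapping groups (-1.84, SE 0.890, adjusted p = 0.318 in the fit over probe sets). With the mean of both probe sets the H2-T3 call was lost (-1.58, SE 0.513, limma adjusted p = 0.0979). It was also lost with no filter (-1.32, limma adjusted p = 0.159). H2-Bl read 819 in control 1 and 97.4 and 100.1 in the other controls, so its difference of -1.88 (SE 0.709, adjusted p = 0.140) rested on control 1. Cd1d1, which presents lipids, had -0.87 (adjusted p = 0.109) and H2-Q10 0.96 (adjusted p = 0.115).

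Of 12 other genes of loading and peptide trimming 1 was called higher and 0 lower, where 4.46% and 4.66% of all genes were. At an unadjusted limma p under 0.05, 3 were higher and 1 lower, where 11.4% and 12.9% of all genes were. Thop1, a cytosolic peptidase that degrades peptides, rose from 38.7, 46.5 and 46.0 to 107, 156 and 147, 3.19-fold (log2 difference 1.67, SE 0.259, adjusted p = 0.00437). Its second probe set had overlapping groups (29.8, 17.7 and 25.5 against 33.3, 31.2 and 29.5, difference 0.31, SE 0.250, adjusted p = 0.564 in the fit over probe sets), and with the mean of both the difference was 0.995 (adjusted p = 0.0231). The call was lost with no filter (1.67, adjusted p = 0.0976), without control 1 (1.55, adjusted p = 0.143) and without control 2 and 3 together (1.80, adjusted p = 0.135), with a range of 0.00102 to 0.143 over 20 alternatives. Tapbpl, a tapasin relative that edits peptides, had 250, 231 and 216 in the controls and 154, 164 and 162 in the replacement arrays, apart but not past the threshold (-0.56, SE 0.225, adjusted p = 0.158). The peptidase Tpp2 had 0.63 (adjusted p = 0.145) and Sec61a1, a pore protein of the endoplasmic reticulum, 0.73 (adjusted p = 0.116).

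**Figure D3:**
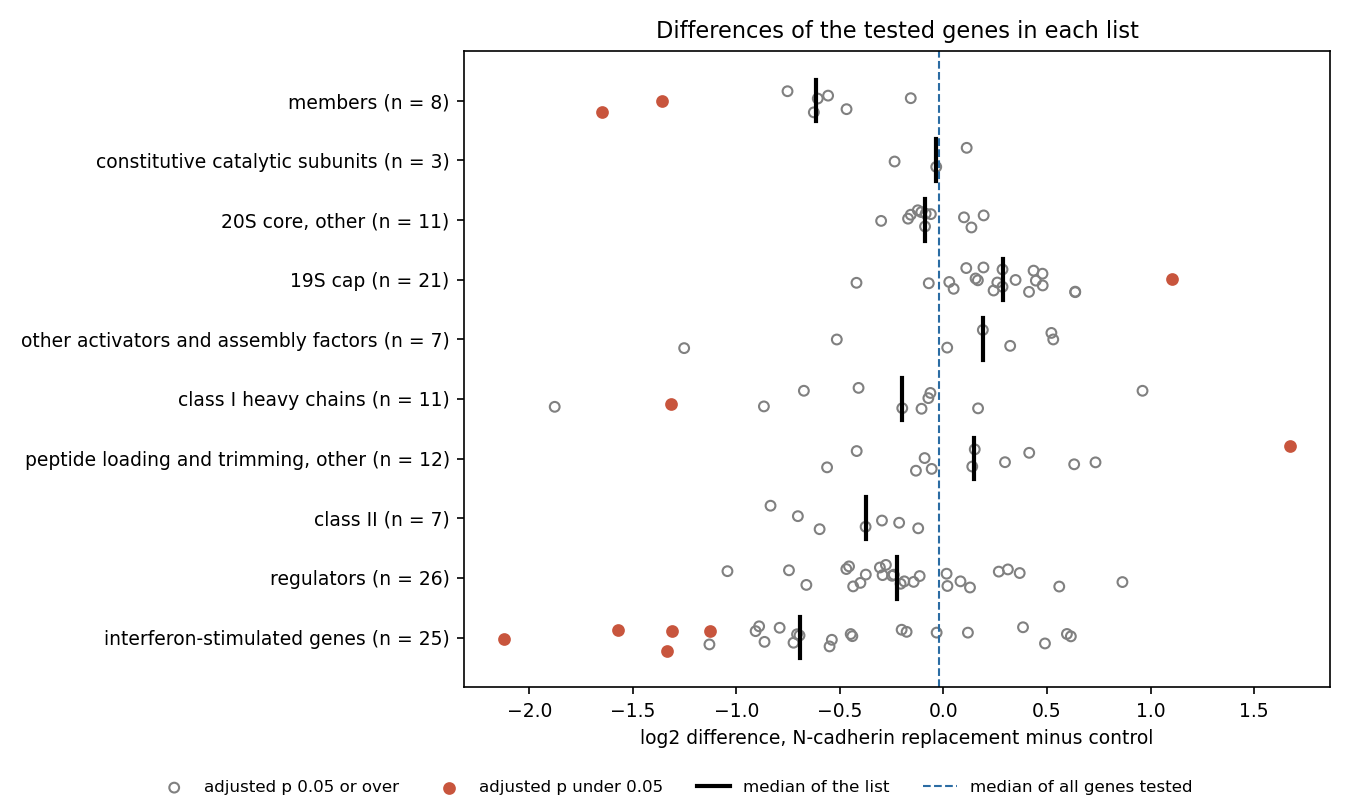
Log2 difference, N-cadherin replacement minus control, of every tested gene in each list, with the number tested beside the name; filled red points have a limma adjusted p under 0.05, black bars are medians of the lists and the dashed blue line is the median of all genes (-0.02). The 8 members all lie below 0 with a median of -0.62, core subunits centre near 0, and the 19S cap lies mostly above 0.

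Of 26 regulators that act on these genes 0 passed in limma (1 higher and 3 lower at an unadjusted p under 0.05, where 11.4% and 12.9% of all genes were), with a median of -0.22. Irf1, the interferon-induced activator of several members, read 781, 773 and 744 in the controls and 634, 558 and 499 in the replacement arrays, apart but with a difference of -0.46 (SE 0.233) that did not pass (adjusted p = 0.269). Irf9, the DNA-binding part of the type I interferon complex, had -0.66 (adjusted p = 0.105), Irf7 -0.75 (adjusted p = 0.171) and the receptor chain Ifnar2 -1.04 (adjusted p = 0.102). Relb, a subunit of NF-kappa B, had 0.86 (SE 0.235, adjusted p = 0.0510). Ciita, the class II transactivator related to Nlrc5, was level at 29.9, 26.6 and 31.9 against 30.1, 19.9 and 27.5. Of 7 tested class II genes 0 passed, also at an unadjusted p under 0.05. Cd74 and H2-Aa were highest in control 1 and next highest in replacement 1: H2-Aa read 358 in control 1 and 160 in replacement 1, and 24.6 to 35.7 on the other 4.

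Of 25 interferon-stimulated genes 5 were called lower and 0 higher, where 4.66% and 4.46% of all genes were, with a median of -0.69. At an unadjusted limma p under 0.05, 14 were lower and 1 higher, against 12.9% and 11.4% of all genes. The guanylate-binding protein Gbp7, among the 5, went from 184, 175 and 161 to 55.7, 54.9 and 67.5 (log2 difference -1.57, SE 0.234, limma adjusted p = 0.00349). Its relative Gbp6, also among the 5 and the 14, was under 16 on all replacement arrays and at least 4.36-fold lower. Gbp6 passed the filter only through the control arrays, so a lower value was favoured in advance. The count was 0 without control 1 and without control 2 and 3 together, 3 without replacement 2, 2 without replacement 3 and 10 with control 2 and 3 as separate replicates.

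Leukocytes carry the immunoproteasome at high levels, so their markers were set beside these values; in such a cell mixture, fewer cells of a type and less RNA per cell cannot be told apart. Of 16 T cell markers 8 were under 16 on all arrays, Cd3e among them (at most 10.2), and the summed intensity was 436 to 622 in the controls and 312 to 485 in the replacement arrays. Zap70 made up much of that sum (382, 278 and 267 against 106, 196 and 274). Cd8a was level at 57.8 to 67.9 and 51.7 to 83.3. The 7 pan-leukocyte markers summed to 133 to 292 and 150 to 229, with Ptprc under 16 in control 2, control 3 and replacement 2, and the 6 B and plasma cell markers to 105 to 172 and 142 to 162. The 12 myeloid markers summed to 2787 to 3384 in the controls and 1238 to 2063 in the replacement arrays, most of it from Csf1r. The brightest of its 3 probe sets, the only one read here, fell (log2 difference -1.44, SE 0.286, limma adjusted p = 0.0143). This call was lost in 5 of 20 alternative settings, with differences from -1.695 to -1.301. Without Csf1r the sums were 310 to 957 and 501 to 792. Cd14, a receptor part for bacterial lipopolysaccharide in the same list, rose 6.22-fold, from 28.2, 20.3 and 19.1 to 151, 167 and 125 (log2 difference 2.64, SE 0.262, adjusted p = 5.88e-04). Stromal and endothelial markers summed to 355 to 1569 and 577 to 643, with Pecam1 under 16 on 4 of 6 arrays and Col1a1 on 1. The enterocyte markers summed to 40077 to 42787 and 35866 to 48156. No leukocyte or stromal list other than the myeloid one, through Csf1r, had sums that separated the groups, and the part of these cells in the values of Psmb8 and Psmb9 was not tested.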

How the data were processed

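Total RNA of 6 samples (3 control, 3 N-cadherin replacement) was read on Affymetrix arrays. The deposited table holds linear intensity values of 45101 probe sets, which the authors had scaled per array; GCRMA and limma, per the submitters' processing notes, are the tools named, with no version; how probes were summarised is not stated in any label or header read here. Intensities were floored at 16 and log2 was taken, which shrinks differences of dim transcripts. Probe sets with at least 3 of 6 arrays at 16 or more were kept (26630, or 59.0%), and among those with 1 gene symbol the brightest stood for its gene (12994 genes). Of 34945 probe sets with 1 symbol, 34741 matched GRCm38.p6 genes by Entrez identifier; 932 had several. Groups, with control 2 and 3 averaged, were compared with limma 3.58.1 in R 4.3.3 (lmFit, eBayes), Benjamini-Hochberg adjustment over all genes and a threshold of 0.05; ratios of subunits were tested with scipy 1.17.1, a test added after the data were seen. Named genes are the members, up to 4 genes with the smallest p of each list, and Psmb5 to Psmb7, Irf1, Ciita, Cdh1 and Cdh2. Members and lists were chosen with earlier results of these data known. Motifs were searched as exact letters. The steps were tested on simulated data. For arrays their number limits the precision. Alternatives covered filters, floor, scaling, probe set choice, eBayes options, weights, sex, a replicate block, a 2-fold limit and left-out arrays.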

Additional observations from a re-analysis of the deposited data

Results flagged for a closer look

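Psmb10 differed in opposite directions in the replacement samples of either sex. Its log2 difference was -0.38 among females (control 1 against replacement 2 and 3, both lower) and 0.28 among males (control 2 and 3 against replacement 1, higher), or -0.67 as female minus male. Among the constitutive subunits, Psmb5 was above 0 in both sexes (0.305 in females and 0.11 in males). Psmb6 and Psmb7 went as Psmb10 did, with female minus male -0.63 for Psmb6 (-0.40 and 0.22) and -0.90 for Psmb7 (-0.34 and 0.56). So did the heavy chains H2-K1 (-0.38), H2-D1 (-0.27) and H2-Bl (-3.67), the class II genes Cd74 (-3.35) and H2-Aa (-5.96) with their activator Ciita (-0.40), and the leukocyte and stromal markers Ptprc (-2.21) and Col1a1 (-2.06). In each of these except Psmb5 the female difference was below 0 and the male one above. Control 1, the only female control, was far above control 2 and 3 in several of them. It read 819 against 97.4 and 100.1 for H2-Bl, 358 against 31.3 and 24.6 for H2-Aa, and 287 against 80.2 and 85.4 for Cd74. For Col1a1 it read 94.6 against 30.5 and 15.9, while the replacement arrays were level (28.2, 28.6 and 29.2). Ptprc was 56.4 in control 1 and under 16 in control 2 and 3. Where control 1 stood apart, sex and control 1 itself cannot be told apart. Psmb10 was level in the controls (761, 749 and 759), with 917 in replacement 1 and 601 and 567 in replacement 2 and 3. For Psmb10, sex cannot be told apart from replacement 1 itself, the only male replacement array. None of the genes of this section passed the test of replacement against control. The difference between the sexes was not tested, since each sex holds 1 control replicate.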

How the results depend on the processing

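The count of members called higher was 0 under all 21 alternatives, and that of members called lower, 2 here, ran from 0 to 4. It was 4 with control 2 and control 3 as separate replicates, which adds Tap2 (adjusted p = 0.0171) and Tapbp (0.0296), and 0 with no filter, with a floor at 1, with every kept probe set tested, and without control 2 and 3 together. Leaving out each array in turn gave 0 to 2. Whether the replicate number pairs the samples is not known. The deviations of same-numbered arrays correlated at -0.02, 0.00 and -0.06, which cannot exclude a pairing. With the replicate number as a block, a fit that needs control 2 and 3 as separate replicates, 3 members were lower. Against the 4 of the fit with those 2 separate and no block, Tap2 was kept (-0.73, adjusted p = 0.0415) and Tapbp lost (0.0547). In the 20 alternatives that give single differences, those of all 8 tested members were below 0, from -2.06 to -1.35 for Psmb8 and from -1.66 to -1.17 for Psmb9, and each of these calls was lost in 7. Over all genes the counts ran from 3 to 1118 higher and from 1 to 1234 lower. Dim members (Nlrc5 and 3 Tap1 probe sets) were too close to background for a fold.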
